A study of Mus musculus with 24 samples.

Results

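The mouse mitochondrial genome contributed 37 genes to the count table, and these genes are described here across 24 libraries from whole hearts. They are all rows whose symbol starts with mt-, 37 of 52724 gene rows. The 37 comprise 13 protein genes, 2 ribosomal RNAs and 22 tRNAs. Of them 28 lie on the plus strand and 9 on the minus strand of the mitochondrial chromosome in GRCm38. The 13 protein genes and the 2 ribosomal RNAs passed the filter on low counts and were tested among 16018 genes, and the 22 tRNAs did not pass it. The rule uses the symbol and no measured value, though earlier results of these data were known when it was set.

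The study asked what the loss of FKBP12, an immunophilin encoded by Fkbp1a, does to the mouse heart. FKl/l hearts carried floxed Fkbp1a and no Cre. FKl/l MCK+ hearts carried floxed Fkbp1a and Cre driven by the muscle creatine kinase promoter, which per the design is expressed from embryonic day 13. FKl/l MHC+ hearts carried floxed Fkbp1a and Cre driven by the α-myosin heavy chain promoter, expressed from embryonic day 9, and MHC CRE Only hearts carried this driver without the floxed allele. Each genotype had 6 libraries, 3 in each of the 2 batches that the labels name, and a library is named here by its genotype, batch and number, as in FKl/l 1-3. The labels do not say what a batch was, nor the age or sex of the mice, and no libraries of the MCK driver alone were analysed here. Nor is it stated whether libraries came from different animals, and a p-value here therefore speaks only of spread among libraries, which may be technical.

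Mitochondrial DNA is a small circle that is transcribed from both strands into long precursor RNAs. These are cut into ribosomal RNAs, tRNAs and messenger RNAs, often at the tRNAs that lie between the other genes. The proteins it encodes are core subunits of respiratory complexes I, III and IV and of ATP synthase, which otherwise consist of subunits encoded in the nucleus. Heart muscle is dense in mitochondria and takes most of its ATP from this chain. The nuclear genome also holds inserted copies of mitochondrial DNA, and reads from a mitochondrial transcript can match such a copy equally well.

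The sequences that bear on how counts were divided among these genes are shown next, from the transcripts of GENCODE M21 on GRCm38. The first pair are stretches where neighbouring genes share bases on the same strand, with the shared bases in capitals, since a read there belongs to both genes. The mt-Atp8 and mt-Atp6 genes share 43 bases (stretch shown, chrM:7897-7999, plus strand), and mt-Nd4l and mt-Nd4 share 7 bases (chrM:10137-10203, plus strand).
mt-Atp8 and mt-Atp6 junction: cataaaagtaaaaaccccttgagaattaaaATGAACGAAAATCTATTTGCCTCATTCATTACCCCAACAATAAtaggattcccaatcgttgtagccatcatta
mt-Nd4l and mt-Nd4 junction: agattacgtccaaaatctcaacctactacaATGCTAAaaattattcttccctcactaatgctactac

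Nuclear copies are the next set. An alignment of the mitochondrial genes to the annotated transcripts found 7 pseudogenes on the minus strand of chromosome 1 that matched a mitochondrial gene over at least 100 bases with at least 99% identity. The copies of mt-Atp6 (Gm10925, chr1:24613974-24614651), mt-Co2 (Gm28661, chr1:24614885-24615565), mt-Co3 (Gm28437, chr1:24613189-24613971), mt-Nd4 (Gm28439, chr1:24611535-24612410) and mt-Nd4l (Gm10222, chr1:24612407-24612700) had no mismatch over 678, 681, 783, 876 and 294 aligned bases. The other two had 1 mismatch each, counted from 1 at the first base of the mitochondrial gene with the mitochondrial base first. It was A1066T in the copy of mt-Co1 (Gm29216, chr1:24615706-24616197, 483 aligned bases) and T3C in that of mt-Nd3 (Gm28438, chr1:24612775-24613119, 345 aligned bases). The base that differs is in capitals in the next lines, which start at the first aligned base and show mt-Co1 at chrM:6390-6408 beside Gm29216 at chr1:24616170-24616188, and mt-Nd3 at chrM:9459-9476 beside Gm28438 at chr1:24613102-24613119. For mt-Nd4l (chrM:9877-10173) the whole gene is shown, with the bases identical in Gm10222 in capitals.
mt-Co1 at A1066T: ggaAttgttttatccaact
Gm29216 at A1066T: ggaTttgttttatccaact
mt-Nd3 at T3C: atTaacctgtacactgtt
Gm28438 at T3C: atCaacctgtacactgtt
mt-Nd4l: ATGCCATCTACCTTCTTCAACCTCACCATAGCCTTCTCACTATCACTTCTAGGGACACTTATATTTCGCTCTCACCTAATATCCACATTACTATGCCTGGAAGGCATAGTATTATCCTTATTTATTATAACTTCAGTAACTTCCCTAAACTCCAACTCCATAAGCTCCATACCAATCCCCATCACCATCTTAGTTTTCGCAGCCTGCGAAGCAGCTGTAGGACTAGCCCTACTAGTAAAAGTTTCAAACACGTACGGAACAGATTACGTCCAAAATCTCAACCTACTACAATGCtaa
Within the aligned bases the sequence of a read can hardly tell any of these 7 genes from its copy, so the division of their counts is uncertain. In 4 of them, mt-Co3, mt-Atp6, mt-Nd3 and mt-Nd4l, the copy took 32.8 to 75.7% of the counts of the pair in every library. These 4 rows are treated as the most uncertain and are also given with the counts of the copy added.

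Across all libraries, gene rows held 27799403 to 40412640 counts. Cardiomyocyte markers were high in every library, at 60010 to 73300 counts-per-million units (CPM) summed over 12 genes. The level of Fkbp1a, the targeted gene, was 130 ± 10.1 CPM in FKl/l, 122 ± 20.5 in MHC CRE Only, 65.0 ± 10.7 in FKl/l MCK+ and 59.1 ± 12.6 in FKl/l MHC+ (SD, n = 6 each). At 81.7 CPM, the library labelled MHC CRE Only 1-3 was below all FKl/l libraries and above all deletion libraries, so it goes against its label. Markers of airway and lung epithelium had their highest sum, 788 CPM, in MHC CRE Only 2-3 and the next highest, 256 CPM, in FKl/l 1-1, with a lowest library of 0.28 CPM. The mitochondrial share, the calls and the values within a batch are also given below without these 3 libraries.

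Mitochondrial rows took between 25.7 and 36.5% of the gene counts of a library, with a median of 29.5%. Protein genes held 88.6 to 92.2% of these mitochondrial counts and the ribosomal RNAs 7.83 to 11.4%. The genes of complex IV alone held 44.8 to 51.9%, those of complex I 27.0 to 38.9%, mt-Cytb of complex III 5.99 to 8.73%, and the ATP synthase genes 1.47 to 3.20%. The nuclear copies held a further 2.65 to 5.42% of gene counts.

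Levels per length differed widely between transcripts. On the scale of CPM per kilobase, mt-Co2 and mt-Co1, which encode catalytic subunits of cytochrome c oxidase (complex IV), led with 69580 ± 19950 and 59260 ± 7313 (SD, n = 24). The order of this pair was not fixed, since mt-Co2 was the higher in 14 of 24 libraries. Then came mt-Nd1 and mt-Nd4, membrane subunits of complex I, at means of 32470 and 24110, and mt-Cytb, the cytochrome b of complex III, at 19850. The third catalytic-core subunit of complex IV, mt-Co3, stood at 17600, and the complex I subunit mt-Nd2 at 16780. The large ribosomal RNA mt-Rnr2 had 14610 and the small ribosomal RNA mt-Rnr1 8511 CPM per kilobase.

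The lower end of the order held mt-Atp6 at 9086 CPM per kilobase, mt-Nd5 at 7466 and mt-Nd6, the protein gene of the minus strand, at 6616. The short genes mt-Atp8, mt-Nd3 and mt-Nd4l had means of 4547, 4143 and 4126. Of the 14 neighbouring pairs in this order, only mt-Co1 over mt-Nd1, mt-Nd1 over mt-Nd4 and mt-Rnr2 over mt-Atp6 kept their order in 24 of 24 libraries. The counts of the copies moved this order at 4 places: with them added, mt-Co3 stood at 47830 CPM per kilobase, mt-Atp6 at 18910, mt-Nd3 at 11140 and mt-Nd4l at 7928. In the plot of levels per kilobase the open diamonds of these 4 transcripts lie well above their own rows, and those of the other 11 lie between the batches.

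**Figure D1:**
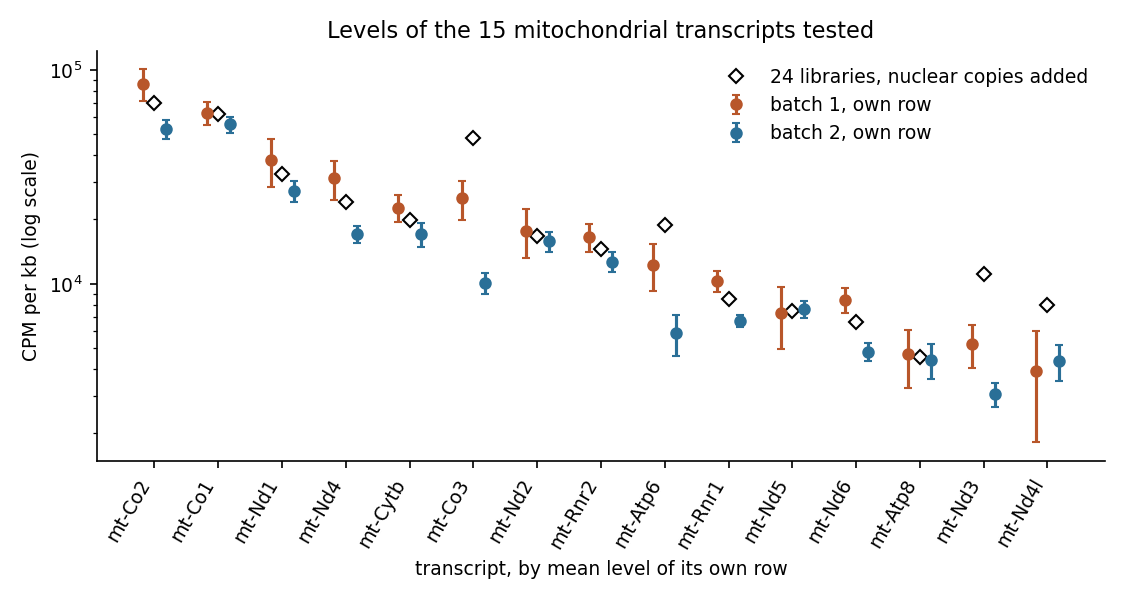
Levels of the 15 mitochondrial transcripts tested, in CPM per kilobase on a log axis, ordered by mean level; filled circles are the mean ± SD of 12 libraries of batch 1 or batch 2 for the transcript's own row, and open diamonds the mean of 24 libraries with the nuclear copies added. mt-Co2 and mt-Co1 lead, and adding copies raises mt-Co3 from 17600 to 47830.

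The tRNA rows held almost no counts: 331 in all over 24 libraries, 0.000122% of mitochondrial counts. No library had more than 14 counts on a tRNA row, and 7 of the 22 rows had none anywhere, where 3 counts would be 0.108 CPM in the smallest library. The row with 14 counts was mt-Ts1, a serine tRNA on the minus strand, which overlaps mt-Co1 on the opposite strand by 3 bases. Its sequence (chrM:6870-6938, minus strand, no capitals used) is shown because it alone of the 15 tRNA rows with a count passed a test between batches.
mt-Ts1: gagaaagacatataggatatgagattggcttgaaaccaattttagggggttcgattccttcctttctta
Without the filter on low counts, mt-Ts1 was lower in batch 2 than in batch 1 (log2 fold change -1.26, adjusted p = 0.0131 in edgeR). The p-values of that unfiltered fit are doubtful. It gave mt-Nd4l an adjusted p of 2.78e-35 in the edgeR test of genotype by batch, where the filtered fit did not call it. The share of all genes called without the filter is not given here, and the mt-Ts1 row held only 146 counts in all. These libraries therefore give levels of the long mitochondrial RNAs and not of the tRNAs.

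The mitochondrial share of gene counts did not separate the genotypes. It was 30.6 ± 3.11% in FKl/l, 30.7 ± 4.88% in MHC CRE Only, 31.5 ± 3.95% in FKl/l MCK+ and 31.7 ± 3.6% in FKl/l MHC+ (SD, n = 6 each). The differences, averaged over the batches, were 0.929 percentage points for FKl/l MCK+ minus FKl/l, 1.18 for FKl/l MHC+ minus FKl/l, 1.02 for FKl/l MHC+ minus MHC CRE Only, 0.167 for MHC CRE Only minus FKl/l and 0.254 for FKl/l MHC+ minus FKl/l MCK+. Exact 2-sided permutation tests within batch gave p = 0.575, 0.49, 0.155, 0.915 and 0.94 in that order, and adjusted p of 0.775 or above over the 5 comparisons (smallest p possible 0.005). Without FKl/l 1-1, MHC CRE Only 1-3 and MHC CRE Only 2-3 the differences were 1.95, 2.20, 1.42, 0.786 and 0.254 points in the same order, with adjusted p of 0.338 or above in the same exact test. In bulk hearts, a different share of cardiomyocytes and a different amount of mitochondrial RNA per cell cannot be told apart.

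These differences did not hold within the batches. MHC CRE Only minus FKl/l was 3.12 points in batch 1 and -2.79 in batch 2, and FKl/l MHC+ minus FKl/l was 2.96 and -0.594. FKl/l MHC+ minus MHC CRE Only was -0.161 in batch 1 and 2.19 in batch 2. The other two comparisons also had opposite signs, 2.00 and -0.136 for FKl/l MCK+ minus FKl/l and 0.966 and -0.458 for FKl/l MHC+ minus FKl/l MCK+. The exact permutation test within a batch, 3 libraries against 3, cannot go below p = 0.1, and it gave 0.1 to 1. Without MHC CRE Only 1-3 and FKl/l 1-1, the batch 1 differences were 4.60 points for MHC CRE Only minus FKl/l, 5.00 for FKl/l MHC+ minus FKl/l, 4.03 for FKl/l MCK+ minus FKl/l and 0.398 for FKl/l MHC+ minus MHC CRE Only, the last with its sign turned. In batch 2 without MHC CRE Only 2-3, MHC CRE Only minus FKl/l was -3.02 points and FKl/l MHC+ minus MHC CRE Only 2.43.

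**Figure D2:**
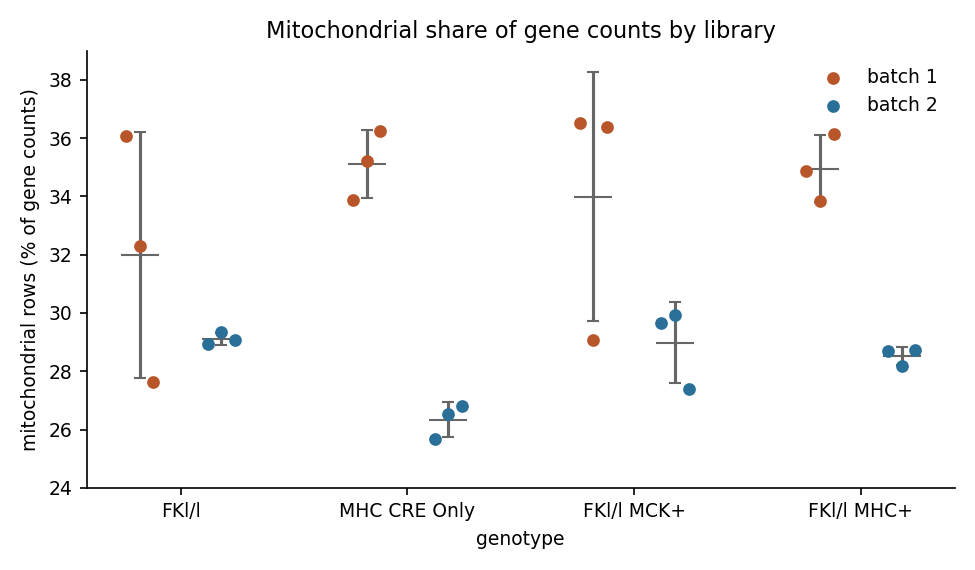
Mitochondrial rows as a percent of gene counts (y axis, starting at 24%) for each genotype; points are single libraries, and lines the mean ± SD of the 3 libraries of a batch. Batch 1 libraries reach 36.5% and batch 2 libraries lie between 25.7 and 29.9%.

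Batches did separate. The share was 34.0 ± 2.96% in batch 1 and 28.2 ± 1.35% in batch 2 (SD, n = 12 each), a difference of -5.77 points (exact permutation test within genotype, 2-sided, p = 0.0001625), and -5.18 without the 3 libraries named above (p = 0.001208 in the same exact test). Within genotypes the difference was -2.87 points in FKl/l, -5.00 in FKl/l MCK+, -8.78 in MHC CRE Only and -6.43 in FKl/l MHC+. The 2 genotypes with αMHC-driven Cre had no overlap between batches, while FKl/l 1-3 at 27.6% and FKl/l MCK+ 1-2 at 29.1% lay inside the batch 2 range of 25.7 to 29.9%. With the nuclear copies added, the shares were 38.6 ± 3.16% and 31.2 ± 1.49%.

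Of the 15 mitochondrial transcripts, 11 were lower in batch 2 and 0 were higher (7 lower and 5 higher when levels were scaled to the mitochondrial total). Their median log2 fold change was -0.47, where the median of all genes was 0.02. Of all 16018 genes 38.4% were called between the batches, 22.2% higher and 16.2% lower, so calls were common in this comparison. Without the 3 doubted libraries 10 transcripts were lower and 0 higher, mt-Co1 being lost. The largest difference was in mt-Co3, whose level ran from 12380 CPM through a median of 19460 to 25740 in batch 1, and from 6604 to 9318 in batch 2, with no overlap. It fell by 1.31 on the log2 scale (SE 0.0841, adjusted p = 5.39e-12), which is 2.48 times higher in batch 1. Within genotypes its log2 fold change was -1.36 in FKl/l, -1.14 in MHC CRE Only, -1.24 in FKl/l MCK+ and -1.50 in FKl/l MHC+. It is also the transcript that moved most when the copy was counted with it, to -0.88 (adjusted p = 2.45e-10).

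The next largest fall was that of mt-Atp6, which encodes the proton channel subunit of ATP synthase. It ran from 5332 to 11910 CPM in batch 1 (median 8441) and from 2683 to 5248 CPM in batch 2, again without overlap. Its log2 fold change was -1.07 (SE 0.105, adjusted p = 1.99e-08), and -0.90 with the copy added. The other mitochondrial genes without overlap were mt-Rnr1 (-0.61, SE 0.0606), mt-Nd3 (-0.78, SE 0.0896) and mt-Nd6 (-0.80, SE 0.0687). How many of all genes had no overlap was not counted, so the lack of overlap cannot be read as particular to these genes. By a different measure, the test, 38.4% of all genes were called between the batches. For mt-Nd6 the ranges were 3306 to 5316 CPM in batch 1 and 2054 to 2824 CPM in batch 2, in a gene that lies on the strand opposite to the other protein genes.

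Among the complex I genes, mt-Nd4 fell by 0.86 and mt-Nd1 by 0.47 on the log2 scale. Scaled to the mitochondrial total, mt-Nd4 was at -0.39 and still called, and mt-Nd1 was at -0.00051 and no longer called. The complex IV gene mt-Co2 fell by 0.70, the complex III gene mt-Cytb by 0.42 and the large ribosomal RNA mt-Rnr2 by 0.39, the last pair being at 0.04 and 0.07, not called, when scaled to the mitochondrial total. A smaller fall was called in mt-Co1 (-0.18, SE 0.0711, adjusted p = 0.0465). Leaving out 1 library at a time ended this call in 18 of 24 fits, MHC CRE Only 1-3 among them (adjusted p = 0.0682), and it was firmer with the copy added (-0.27, adjusted p = 0.00268). On library sizes taken as total counts the mt-Co1 value was 0.01, in the other direction, and 0.27 when scaled to the mitochondrial total.

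The 4 transcripts that did not pass the test were the complex I genes mt-Nd2 (-0.15, SE 0.117), mt-Nd4l (0.24, SE 0.237) and mt-Nd5 (0.09, SE 0.123), and the ATP synthase gene mt-Atp8 (-0.08, SE 0.160). Complex I thus had 4 of 7 genes called and ATP synthase 1 of 2, while complexes III and IV and the ribosomal RNAs had 1 of 1, 3 of 3 and 2 of 2. The signed log2 fold change of a transcript between batches had Spearman coefficients of 0.15 with its length, 0.17 with its GC content, -0.11 with its position on the genome and -0.26 with its level, across 15 transcripts that share the same libraries. The plot of batch differences shows neighbours on the genome at unlike values, such as mt-Atp8 at -0.08 beside mt-Atp6 at -1.07, and mt-Nd4l at 0.24 beside mt-Nd4 at -0.86.

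**Figure D3:**
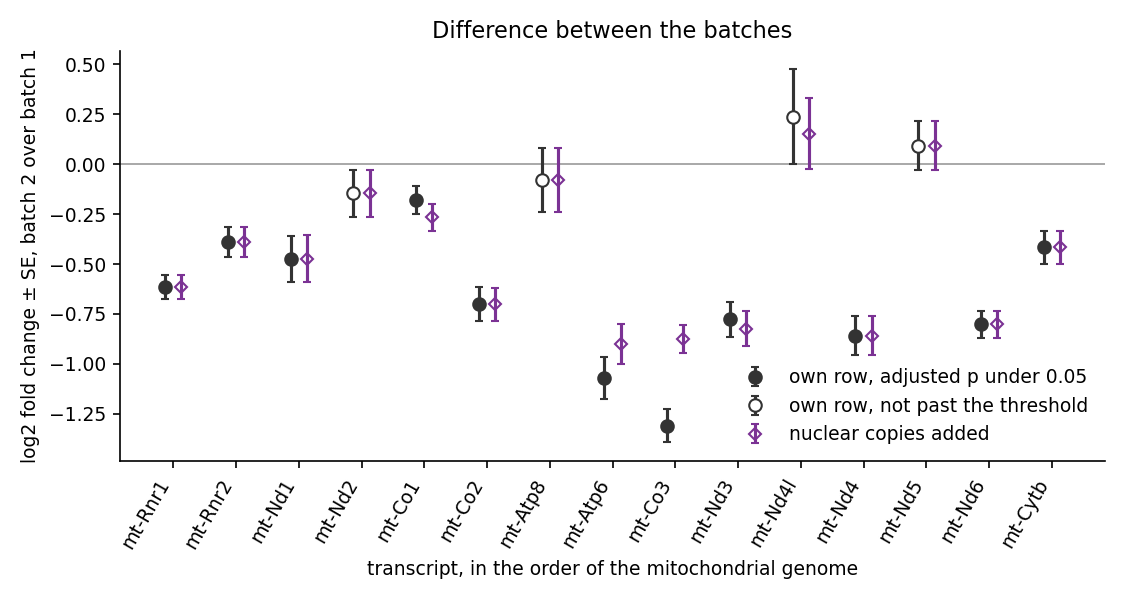
Log2 fold change of batch 2 over batch 1 with its standard error for the 15 transcripts, in genome order; filled circles passed the adjusted threshold, open circles did not, and purple diamonds have the nuclear copies added. Transcripts with values near 0 alternate with those that fell, and mt-Co3 moves from -1.31 to -0.88 with its copy.

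These values are relative to all genes, and scaling on total counts or on the mitochondrial total moved every transcript upward by a similar amount, large and small values alike. The median of the complex IV genes went from -0.70 to -0.51 on total counts and to -0.24 on the mitochondrial total, and that of the complex I genes from -0.47 to -0.28 and -0.00051. On total counts the all-gene median was 0.20, and 10 transcripts were called lower and 1, mt-Nd5 (0.28), higher, where 49.8% of all genes were called, 43.4% higher and 6.39% lower. Scaled to the mitochondrial total, the all-gene median was 0.45, with 7 transcripts lower and 5 higher, where 66.7% of all genes were called, 65.2% higher and 1.52% lower. The 5 were mt-Nd2 at 0.32, mt-Co1 at 0.27, mt-Atp8 at 0.40, mt-Nd4l at 0.71 and mt-Nd5 at 0.55. The balance of counts among mitochondrial rows therefore differed between batches as well as their total.

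This balance of counts was followed in pairs of neighbouring or contrasting transcripts. The neighbours overlap, and whether their ratios reflect RNA levels or the division of reads between them was not tested. The log2 ratio of mt-Atp8 over mt-Atp6, per kilobase, was -1.42 ± 0.511 in batch 1 and -0.41 ± 0.157 in batch 2 (SD, n = 12 each). That of mt-Nd4l over mt-Nd4 was -3.13 ± 0.508 and -2.0 ± 0.230. With copies added these were still unequal, at -2.43 ± 0.394 and -1.59 ± 0.0681 for the first pair of genes. The ratio of mt-Nd5 over mt-Co3 ran from -2.51 to -0.23 in batch 1 and from -0.57 to -0.02 in batch 2.

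The library labelled MHC CRE Only 1-3 stood apart in these ratios. Its mt-Atp8 over mt-Atp6 value was -0.12, where the other 11 libraries of batch 1 lay between -2.10 and -0.92 and batch 2 between -0.61 and -0.10. Its mt-Nd5 over mt-Co3 value was -0.23, where the other 11 lay between -2.51 and -1.29. Of 6 ratios examined (3 pairs, each with and without copies), all 6 had no overlap between batches without this library, and all 6 overlapped with it. Its values lay inside the batch 2 range in 4 of the 6 ratios and outside the range of the rest of batch 1 in all 6. These pairs join transcripts with unlike batch differences, so some separation of the batches was built into their choice. Other pairs were not examined. Single transcripts gave another picture. In CPM this library lay inside the batch 2 range for 1 of 15 transcripts and inside the range of the rest of batch 1 for 8, and as a percent of mitochondrial counts for 6 and 4 of 15.

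In total mitochondrial share the same library did not resemble batch 2. It had 36.2% of gene counts on mitochondrial rows, above all 12 libraries of batch 2. In CPM its mt-Nd2 (28340), mt-Nd1 (48340), mt-Nd5 (24620), mt-Atp8 (1467) and mt-Nd4l (2783) were the highest of the 24 libraries, while its mt-Atp6 (5332) and mt-Co3 (12380) were the lowest of batch 1. The batch differences without it were -1.35 for mt-Co3, -1.10 for mt-Atp6, -0.09 for mt-Nd2, 0.19 for mt-Nd5 and 0.37 for mt-Nd4l.

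The division of counts between gene and copy also moved with batch. Gm29216 held 1.51 to 9.58% of the counts of the mt-Co1 pair in batch 1 and 0.659 to 1.65% in batch 2. The 1.51% was again MHC CRE Only 1-3, and the other 11 libraries of batch 1 had at least 4.45%. For mt-Co3 the copy Gm28437 held 52.9 to 66.8% of the pair in batch 1 and 66.8 to 75.7% in batch 2. The copies of mt-Atp6 held 32.8 to 64.1% of their pair over all libraries, those of mt-Nd3 57.2 to 67.0% and those of mt-Nd4l 41.6 to 67.8%.

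Not every identical copy took counts. Gm28439 matches mt-Nd4 without mismatch over 876 bases, yet held 0.0026 to 0.0125% of the pair, and Gm28661 held 0.418 to 1.41% of the mt-Co2 pair outside FKl/l MHC+ 1-1, where it held 5.29%. Between batches the copies Gm29216 (log2 fold change -2.85), Gm28438 (-0.85), Gm10925 (-0.74) and Gm28437 (-0.64) were called lower in batch 2. Gm28661 (-0.68), Gm28439 (-0.21) and Gm10222 (0.06) did not pass the test.

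**Figure D4:**
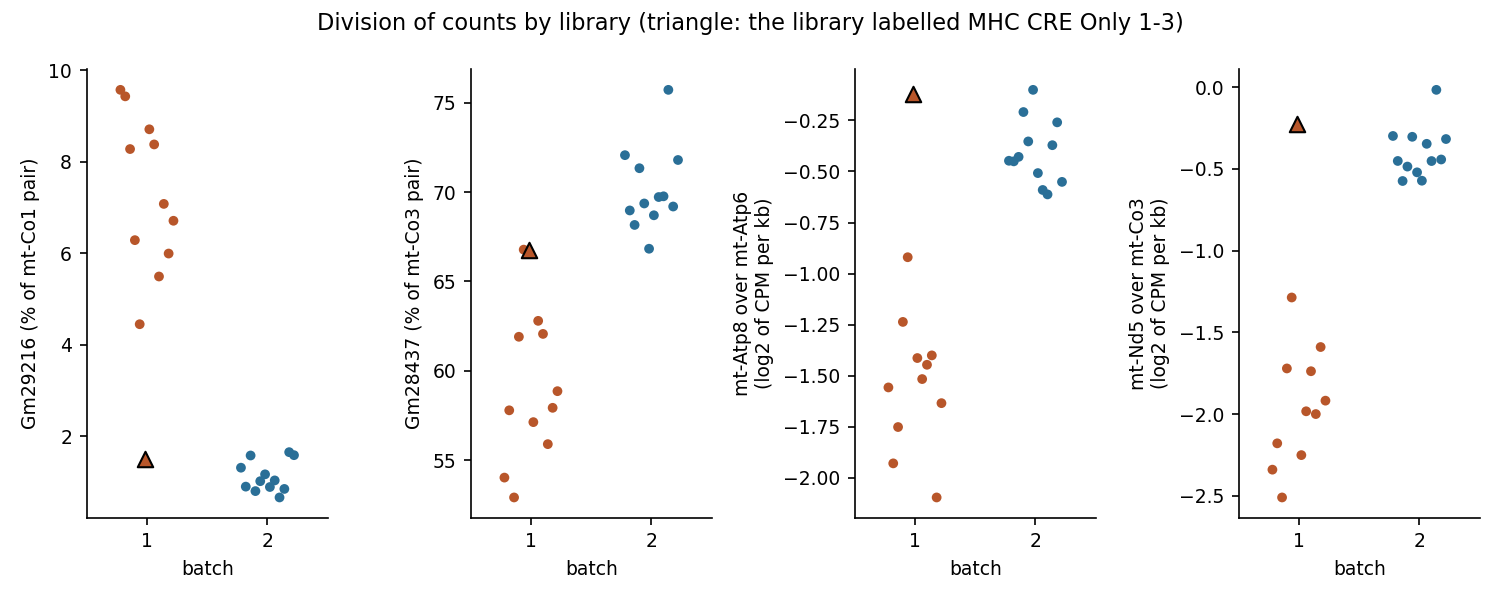
Percent of the counts of a gene and its copy that lie on the copy (2 left panels) and log2 ratios of levels per kilobase (2 right panels), for each library by batch; the triangle is the library labelled MHC CRE Only 1-3. Its Gm29216 share of 1.51% and its mt-Atp8 over mt-Atp6 ratio of -0.12 lie within the range of batch 2.

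Nuclear genes of the respiratory chain had more members lower than higher in batch 2 alongside, in an amount that depended on the scaling. Of 36 nuclear complex I subunits 29 were lower and 1 higher (median -0.28), with Ndufa13 at -0.52, Ndufb7 at -0.48, Ndufa1 at -0.47 and Ndufa2 at -0.43. Complex IV had 12 of 14 lower (median -0.27), among them the heart-type subunit Cox6a2 at -0.48, with Cox5b at -0.36 and Cox6b1 at -0.31. ATP synthase had 11 of 14 lower (median -0.27; Atp5e -0.48, Atp5k -0.46), and complex III had 6 of 9 lower and 1 higher (median -0.23; Uqcr11 -0.38, Uqcrh -0.35). Those medians compare with 0.02 over all genes and -0.47 over the mitochondrial transcripts. Of all genes 16.2% were lower and 22.2% higher. On total counts the medians of these 4 lists were nearer 0, between -0.10 and -0.04, and fewer members were lower. These were 16 of 36 for complex I with 3 higher, 4 of 14 for complex IV with 0 higher, 6 of 14 for ATP synthase with 3 higher, and 2 of 9 for complex III with 2 higher. Of all genes 43.4% were higher and 6.39% lower on that scale, with a median of 0.20. Scaled to the mitochondrial total the direction turned, with 17 of 36, 4 of 14, 6 of 14 and 5 of 9 higher and 0 lower in the same order. With that scaling 65.2% of all genes were higher and 1.52% lower. The all-gene median was 0.45, above the medians of these lists, which lay between 0.16 and 0.22.

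Genes whose products copy, transcribe or process mitochondrial DNA and RNA had more members higher than lower in batch 2 under each of the 5 scalings run. All genes did so too, with 22.2% higher and 16.2% lower here and wider gaps on total counts and on the mitochondrial total. Of 18 genes for replication and transcription of mitochondrial DNA, 7 were higher in batch 2 and 0 lower (median 0.10), and 17 were higher on the mitochondrial total, where 65.2% of all genes were. They included the mitochondrial RNA polymerase Polrmt (0.40, from 34.3 ± 5.65 to 45.0 ± 2.51 CPM, SD, n = 12), the helicase Twnk (0.47), the transcription factor Tfb2m (0.41) and the polymerase Polg (0.30), while the packaging factor Tfam stood at 0.09 and did not pass the test. Of 23 genes for RNA processing and stability 13 were higher and 3 lower (median 0.17). Fastkd2 (0.63), Ptcd3 (0.38), Tbrg4 (0.36) and Lrpprc (0.34) rose, and Slirp, the partner of Lrpprc in stabilising mitochondrial messenger RNAs, fell (-0.29).

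Regulators of mitochondrial content were mixed. Of 11 genes for transcriptional control of mitochondrial biogenesis 6 were higher and 1 lower (median 0.16), beside 22.2% higher and 16.2% lower of all genes. Esrrb (0.55), Esrrg (0.42) and Gabpa (0.36) were higher and the coactivator Ppargc1a was lower (-0.33). Of 14 mitochondrial translation factors 6 were higher and 1 lower (median 0.08), with Taco1, an activator of mt-Co1 translation, at 1.06 and the elongation factor Gfm1 at 0.41. Both lists moved with the scaling. On total counts 8 of 11 and 10 of 14 were higher, where 43.4% of all genes were. On the mitochondrial total it was 10 of 11 and 14 of 14, where 65.2% of all genes were higher.

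Other RNAs were counted in the same way, beside the 22.2% of all genes called higher and the 16.2% called lower. Cardiomyocyte markers had 3 of 12 higher and 6 lower, and endothelial markers had 4 of 8 lower. The remaining marker lists had 2 or fewer genes called each. These were 1 of 8 fibroblast, 1 of 7 macrophage and lymphocyte and 1 of 5 skeletal muscle markers lower, 2 of 8 smooth muscle and pericyte markers higher, and 0 of 7 erythroid, 7 adipocyte and 5 lung markers. These counts also moved with the scaling. On total counts cardiomyocyte markers had 6 higher and 3 lower, endothelial markers 1 lower, fibroblast markers 1 higher and erythroid markers 2 higher. Of all genes 43.4% were higher and 6.39% lower on that scale. On the mitochondrial total 7 of 12 cardiomyocyte, 5 of 8 endothelial, 8 of 8 fibroblast, 4 of 7 macrophage and lymphocyte, 5 of 8 smooth muscle and 6 of 7 erythroid markers were higher and 0 lower. With that scaling 65.2% of all genes were higher and 1.52% lower. The skeletal myosin Myh4 was at 0 in 22 libraries. Immediate early genes had 11 of 16 higher in batch 2 (Nr4a1 1.68, Junb 0.89, Dusp1 0.77). Of 11 listed RNAs that lack a poly(A) tail, 3 were in the table and tested, and 2 were higher, Rmrp (1.24) and Rpph1 (0.82). Their levels were low, with a sum over the 3 of 0.725 to 3.03 CPM in a library. The part of these in the mitochondrial differences was not tested.

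No mitochondrial transcript was called in any of the 5 genotype comparisons. In FKl/l MCK+ against FKl/l, 0 of 15 passed, where 0.0499% of all genes did, and 0 had an unadjusted p under 0.05. Their log2 fold changes lay between -0.17 and 0.29 with a median of 0.03, and the smallest adjusted p was 0.999. In FKl/l MHC+ against FKl/l, 0 of 15 passed, where 1.71% of all genes did, and 0 had an unadjusted p under 0.05. These values lay between -0.16 and 0.28 with a median of 0.07 (smallest adjusted p 0.442, mt-Nd1).

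FKl/l MHC+ against MHC CRE Only also had 0 of 15 called, with 1.87% of all genes called and 2 members at an unadjusted p under 0.05. MHC CRE Only against FKl/l had 0 of 15, with 0.0437% of all genes called and 3 members at an unadjusted p under 0.05. FKl/l MHC+ against FKl/l MCK+ had 0 of 15, with 2.15% of all genes called and 0 members at an unadjusted p under 0.05. Member medians were 0.14, -0.01 and 0.04 in these comparisons. DESeq2 called 0, 0, 1, 1 and 0 members in the 5 comparisons in the order given, the 1 being mt-Atp6 in both cases. The shares of all genes called by DESeq2 are not given here, so whether mt-Atp6 stands out there cannot be told. The comparisons share libraries, so they are not independent of each other.

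The precision of these zeros differed by transcript. The standard errors of the 15 log2 fold changes in FKl/l MCK+ against FKl/l ran from 0.0853 for mt-Rnr1 to 0.327 for mt-Nd4l. For mt-Nd4 in FKl/l MHC+ against FKl/l, for instance, the 95% interval of the log2 fold change ran from -0.04 to 0.50, so these libraries leave a rise of that size within the interval. In the authors' deposited tables, which test against a minimum fold, 0 of 15 members were called in each of the 5 comparisons, and the largest log2 fold change was 0.55 in size.

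The transcript nearest the threshold was mt-Atp6 between the genotypes with αMHC-driven Cre. In batch 1 it had 8967, 7730 and 11910 CPM in FKl/l MHC+ and 8010, 7590 and 5332 in MHC CRE Only. In batch 2 it had 3449, 4798 and 5248 against 2721, 3205 and 2683 CPM. The groups overlapped in batch 1 and did not in batch 2, and the log2 fold change over both was 0.55 (SE 0.148, adjusted p = 0.0518). It was 0.48 in batch 1 alone and 0.64 in batch 2 alone.

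The value for mt-Atp6 rested on its own row. With the copy added it was 0.28 (SE 0.140, adjusted p = 0.324), without MHC CRE Only 1-3 it was 0.49 (adjusted p = 0.103), and without the 3 doubted libraries 0.43 (adjusted p = 0.224). It was called when FKl/l 1-3, MHC CRE Only 1-1, FKl/l MCK+ 1-2 or FKl/l MHC+ 2-1 was left out (smallest adjusted p 0.0194). In MHC CRE Only against FKl/l the members with an unadjusted p under 0.05 were mt-Atp6 (-0.52, SE 0.148), mt-Co3 (-0.38, SE 0.117) and mt-Nd3 (-0.36, SE 0.126), 3 genes that have a near-identical copy. With copies added these values were -0.35, -0.21 and -0.36, and the smallest adjusted p of the 3 was 0.202. Without the 3 doubted libraries they were -0.34, -0.27 and -0.23, and none passed.

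**Figure D5:**
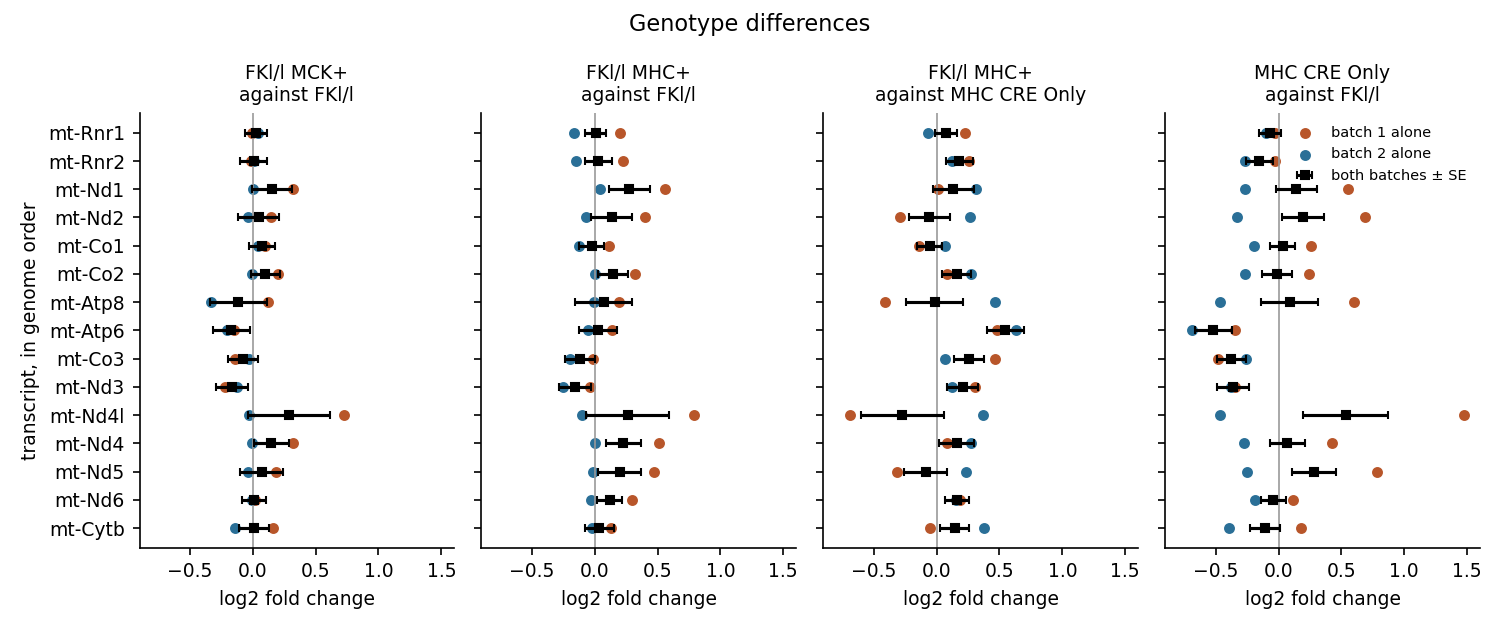
Log2 fold changes of the 15 transcripts in 4 genotype comparisons; black squares are the value over both batches with its standard error, and coloured points the values fitted in batch 1 or batch 2 alone. In MHC CRE Only against FKl/l, 15 of 15 batch 2 values lie below 0 while 10 of 15 batch 1 values lie above it.

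Batches disagreed on the direction of most genotype differences. In MHC CRE Only against FKl/l, 10 of 15 members were above 0 in batch 1 (median 0.24) and 0 of 15 in batch 2 (median -0.27). In FKl/l MHC+ against FKl/l it was 13 above 0 in batch 1 and 3 in batch 2, in FKl/l MCK+ against FKl/l 10 and 4, and in FKl/l MHC+ against FKl/l MCK+ 14 and 7. In FKl/l MHC+ against MHC CRE Only 9 were above 0 in batch 1 and 14 in batch 2. Members of a library share its scaling, so these counts describe libraries rather than 15 separate genes. Without the doubted libraries of each batch, MHC CRE Only against FKl/l had 13 of 15 above 0 in batch 1 and 0 in batch 2, and FKl/l MHC+ against FKl/l 15 and 2.

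Tested in batch 2 alone, 6 members were higher in FKl/l MHC+ than in MHC CRE Only, where 5.72% of 16002 genes were called. They were mt-Atp6 (0.64, adjusted p = 0.0313), mt-Cytb (0.37, adjusted p = 0.0120), mt-Nd1 (0.31), mt-Nd4 (0.28), mt-Co2 (0.27) and mt-Nd2 (0.26). In MHC CRE Only against FKl/l, batch 2 alone had 2 members lower, mt-Cytb (-0.39, adjusted p = 0.0412) and mt-Nd2 (-0.33, adjusted p = 0.0443), where 0.494% of genes were called. Without MHC CRE Only 2-3, the first comparison kept 4 of its 6 in batch 2, mt-Cytb (0.40), mt-Nd1 (0.36), mt-Co2 (0.32) and mt-Nd4 (0.31), where 2.33% of genes were called. The second kept 0 of its 2 (mt-Cytb -0.42, adjusted p = 0.123, and mt-Nd2 -0.34, adjusted p = 0.128), where 0.0184% were called. The values of mt-Cytb in batch 2 were 15010, 16810 and 16620 CPM for MHC CRE Only, 20990, 21150 and 21920 for FKl/l and 19190, 23040 and 21120 for FKl/l MHC+, so MHC CRE Only was below both. In batch 1 alone 0 members were called in any of the 5 comparisons, taken in the order above, where 0.00619, 1.32, 0.483, 0.105 and 1.31% of genes were called. Without MHC CRE Only 1-3 and FKl/l 1-1, mt-Nd1 was higher in batch 1 in FKl/l MHC+ than in FKl/l (0.87, adjusted p = 0.0435), where 4.8% of genes were called, and the other 4 comparisons had 0 members called. That fit left only FKl/l 1-2 and FKl/l 1-3 in FKl/l, at 24720 and 19580 CPM of mt-Nd1. The library left out, FKl/l 1-1, had 39730 CPM, inside the FKl/l MHC+ range of 34180 to 47240 CPM in batch 1. Over all 12 libraries of batch 1, mt-Cytb ran from 26710 to 27480 CPM in MHC CRE Only and from 18740 to 29160 in FKl/l.

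The interaction of genotype with batch was called for 1 of 15 members, where 4.92% of all genes were called, and 5 had an unadjusted p under 0.05. The 1 was mt-Nd2 (adjusted p = 0.0472), a subunit of the membrane arm of complex I. In batch 1 it had 17550, 16780 and 9753 CPM in FKl/l and 20270, 22560 and 28340 in MHC CRE Only. In batch 2 it had 17090, 17990 and 17850 CPM in FKl/l against 13760, 14160 and 13900 for MHC CRE Only. The order of these genotypes was thus opposite in the batches, with no overlap in either.

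From batch 1 to batch 2 the log2 fold change of mt-Nd2 was 0.26 in FKl/l (SE 0.174) and -0.77 in MHC CRE Only (SE 0.174), with 0.08 in FKl/l MCK+ and -0.17 in FKl/l MHC+. MHC CRE Only minus FKl/l was -1.03 (SE 0.246). Both extreme libraries of batch 1, FKl/l 1-3 with the lowest mt-Nd2 and MHC CRE Only 1-3 with the highest, enter this value. Leaving out 1 library at a time kept the call in 7 of 24 fits and ended it in 17, MHC CRE Only 1-3 among the 17. For mt-Nd5 and mt-Nd4l the same difference was -1.05 (SE 0.273) and -1.97 (SE 0.521), and their joint interaction tests did not pass (adjusted p = 0.0712 and 0.104).

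Nuclear genes of the mitochondrion were also called in few genotype comparisons. Of the nuclear subunits of complexes I, III and IV and ATP synthase, and of the genes for replication, transcription and biogenesis, 0 were called in any of the 5. Among RNA processing genes Rexo2, an exonuclease that degrades short RNAs in mitochondria, was higher in FKl/l MHC+ than in MHC CRE Only (0.27, adjusted p = 0.0296). Among translation factors Tufm, the mitochondrial elongation factor Tu, was lower in FKl/l MHC+ than in FKl/l MCK+ (-0.23, adjusted p = 0.0316). In that last comparison, where 2.15% of all genes were called, 5 of 8 endothelial markers were lower, with Cdh5 at -0.36, Tie1 at -0.35, Tek at -0.31 and Pecam1 at -0.28. There 1 of 8 smooth muscle and pericyte markers was also lower and 1 of 16 immediate early genes higher. The skeletal myosin light chain Mylpf, at most 2.82 CPM in a library, was higher (1.97). FKl/l MHC+ against FKl/l and against MHC CRE Only also had 1 of 5 skeletal muscle markers higher each. The latter had 1 of 8 smooth muscle and pericyte markers lower. Whether these bear on the mitochondrial values was not tested.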

How the data were processed

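The authors deposited a table of counts per Ensembl gene for 24 libraries and 5 tables of their own comparisons. Per the submitters' processing notes, bcl2fastq 2.17, FastQC, Trim Galore, STAR and RSEM were used with the genome build mm10. Per the labels' protocols, total RNA was extracted with TRIzol and libraries were made with the NEBNext Ultra II Directional kit. Whether poly(A) RNA was selected or ribosomal RNA removed, the annotation, the strand setting and any rounding of RSEM estimates are not given in the sources used. The deposited counts are whole numbers and were used as they stand. RSEM divides reads that match several genes, which makes the counts of genes with nuclear copies uncertain beyond counting error. For each gene the authors' tables hold, per the file headers, log2 values (fold change and mean expression), a statistic (score) and raw and adjusted p-values.

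Of 56384 rows in the table, 3660 are named by a transcript only. Holding 0.873 to 4.28% of a library's counts, they entered neither library sizes nor tests. Their share was 1.6 ± 0.37% in batch 1 and 2.7 ± 0.79% in batch 2 (SD, n = 12 each). Nearly all of it lay on 1 row, with 0.785 to 4.2% of a library's counts. Levels are CPM on library sizes scaled by the trimmed mean of M values (TMM), with the mean and SD over libraries. Tests were made with edgeR 4.0.16 (limma 3.58.1, R 4.3.3): filterByExpr by genotype, a quasi-likelihood F-test with genotype and batch as terms over the 24 libraries, and Benjamini-Hochberg adjustment over 16018 genes. A gene was called at an adjusted p under 0.05, and SE is the standard error of a log2 fold change. The interaction was a joint test of 3 terms added to that fit. The mitochondrial share was compared by exact permutation of labels within batch, on the mean of the differences within the batches, and the batches by permutation within genotype. The fit was tested on simulated data with known fold changes in FKl/l MHC+ alone. The simulation held no batch difference, so it does not bear on the calls between batches or on the interaction.

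Nuclear copies were found with blastn 2.17.0 among the GENCODE M21 transcripts, at 95% identity or more over at least 100 bases. Alternatives were other scalings, no filter, DESeq2 1.42.0, limma voom, no batch term, a replicate block, each batch alone, leaving out libraries, and, chosen after seeing the data, adding the copies and leaving doubted libraries out of each batch alone. The members and the 26 gene lists were chosen with earlier results of these data known. The rule for names takes every mt- row and, from each other list, up to 4 called genes with the smallest adjusted p, or up to 2 by role where none was called. Tfam, Slirp and Myh4 were named outside this rule, after their values were seen.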

Additional observations from a re-analysis of the deposited data

Results flagged for a closer look

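The 15 transcripts, the 7 copies and the mitochondrial share with and without copies were looked at for a library far from the other 5 of its genotype. This made 96 groups, and chance alone sets a library apart in about 1 in 20 of them. FKl/l 1-3 had 9750 CPM of mt-Nd2, where the other FKl/l libraries had 16800 to 18000. MHC CRE Only 1-3 had 24600 CPM of mt-Nd5, where the others of its genotype had 11500 to 15100. For mt-Nd4l, FKl/l MCK+ 1-2 had 648 CPM beside 1250 to 1560, and FKl/l MHC+ 1-1 had 727 CPM beside 1260 to 1380.

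Among the nuclear copies, Gm10222 held 66.6% of the counts of the mt-Nd4l pair in FKl/l 1-2, beside 42.2 to 49.2% in the other FKl/l libraries. It held 67.8% in FKl/l MHC+ 1-1, beside 45.5 to 50.0%. In FKl/l MHC+ 1-1 the copy Gm28661 also held 5.29% of the mt-Co2 pair, beside 0.418 to 1.10%. In FKl/l MHC+ 2-2 the copy Gm28439 held 0.0119% of the mt-Nd4 pair, beside 0.00481 to 0.00708%. All of these but the last are libraries of batch 1.

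The difference between batches in mt-Nd2 was not the same in the 4 genotypes (joint test of the interaction in edgeR, adjusted p = 0.0472). It was the only call among 15 transcripts, where 4.92% of all genes were called. The call ended in 17 of 24 fits that left out 1 library, and without FKl/l 1-1, MHC CRE Only 1-3 and MHC CRE Only 2-3 (adjusted p = 0.140). It also ended with DESeq2 size factors (0.0598), total counts (0.0582), scaling without mitochondrial rows (0.0536), scaling to the mitochondrial total (0.138) and transcript-named rows in library sizes (0.0651).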

How the results depend on the processing

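Of 417 alternative values for the shares and counts of calls, 361 were rated as kept. A share was kept when its direction and side of the threshold held. A count of calls was kept when equal or similar in size, whatever the direction of the calls. The batch calls on the mitochondrial total, 7 lower and 5 higher, were thus rated as kept beside 11 lower and 0 higher. Of 744 values for single transcripts, 680 kept their direction and side of the threshold. Low counts limit the tRNAs, and reads divided with copies limit mt-Co3, mt-Atp6, mt-Nd3 and mt-Nd4l. The difference in share turned its sign for MHC CRE Only minus FKl/l with copies added (-0.333) and in batch 2 alone (-2.79, or -3.02 without MHC CRE Only 2-3), and in batch 2 alone for FKl/l MCK+ minus FKl/l (-0.136), FKl/l MHC+ minus FKl/l (-0.594) and FKl/l MHC+ minus FKl/l MCK+ (-0.458), the last 3 with the same values without MHC CRE Only 2-3. FKl/l MHC+ minus MHC CRE Only turned in batch 1 alone (-0.161). Leaving out 1 library gave ranges of -0.163 to 2.16 points, 0.0905 to 2.20, 0.710 to 1.30, -0.926 to 1.18 and -0.978 to 0.89, in the order FKl/l MCK+ minus FKl/l, FKl/l MHC+ minus FKl/l, FKl/l MHC+ minus MHC CRE Only, MHC CRE Only minus FKl/l and FKl/l MHC+ minus FKl/l MCK+, and -6.39 to -5.26 for the batches. The sign turned without FKl/l 1-3 in the first and the fourth, without MHC CRE Only 1-3 (-0.112) also in the fourth, and without FKl/l MCK+ 1-2, FKl/l MCK+ 2-3 (-0.144) or FKl/l MHC+ 1-3 (-0.0441) in the fifth. The cause was not tested. A replicate block (numbers within batch paired across genotypes) left 0 members called in the 5 genotype comparisons, with adjusted p = 0.906 for each share by exact sign flips, and same-numbered libraries did not deviate together (correlations -0.274 to 0.179, median -0.023). Calls in FKl/l MHC+ against MHC CRE Only were 1 on total counts, 1 by DESeq2, 6 in batch 2 alone (4 without MHC CRE Only 2-3) and 0 to 1 leaving out 1 library. In FKl/l MHC+ against FKl/l they were 1 in batch 1 alone without MHC CRE Only 1-3 and FKl/l 1-1, where mt-Atp6 in MHC CRE Only against FKl/l turned above 0 (0.0174). In MHC CRE Only against FKl/l they were 1 by DESeq2 and 2 in batch 2 alone, with 0 leaving out 1 library. Between batches they were 10 to 11 leaving out 1 library. The interaction calls were 0 with DESeq2 size factors, total counts, scaling without mitochondrial rows, scaling to the mitochondrial total, transcript-named rows in library sizes, and without FKl/l 1-1 and both MHC CRE Only 1-3 and MHC CRE Only 2-3. They were 6 with no filter, 3 by DESeq2, 2 with copies added and 0 to 3 leaving out 1 library. The shares of all genes called are not given for most of these alternative fits, so these counts cannot be set against them. Batch log2 fold changes turned above 0 on total counts for mt-Nd2 (0.0475), mt-Co1 (0.0095) and mt-Atp8 (0.12). On the mitochondrial total they did for mt-Nd2 (0.32), mt-Co1 (0.27), mt-Atp8 (0.40), mt-Rnr2 (0.0684) and mt-Cytb (0.0423), and for mt-Atp8 also without the same 3 libraries (0.0631).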
